A study of Mus musculus with 6 samples.

Results

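Collagens and interstitial matrix genes were examined in RNA-seq of adult mouse cardiomyocytes (CMs). Members are the protein-coding genes whose symbol is that of a collagen chain, plus 20 named genes of the interstitial matrix. The rule uses names and no measured value, but it was chosen with earlier results of these data known. It found 52 of 16448 genes, of which 32 are collagens and 20 are other matrix genes. CMs came from C57BL/6 mice labelled as 8 to 12 weeks old. The 3 control mice carried αMHC-Cre and an unaltered *Cpt1b* gene (αMHC-Cre pos/+;*Cpt1b* +/+, hereafter CtrlCre). The 3 mutant mice carried the same Cre and a floxed *Cpt1b* gene (αMHC-Cre pos/+;*Cpt1b* fl/fl, hereafter Cpt1bcKO). The comparison addresses what loss of *Cpt1b*, the muscle form of the enzyme that admits fatty acids to mitochondria, changes in CMs. The αMHC promoter drives Cre in CMs from embryonic stages, so both groups express Cre there, and other cells of the mutant heart keep *Cpt1b*. CMs were obtained by enzymatic perfusion and brief slow centrifugation of ventricular cells without a sort by marker, so other cells can be present.

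Fibrillar collagens give the interstitium of the heart its tensile strength, and type IV collagen forms the network of the basement membrane around each myocyte and capillary. Collagen chains are hydroxylated and folded in the endoplasmic reticulum, secreted, trimmed by proteinases, assembled with small proteoglycans and cross-linked by lysyl oxidases. In the adult heart, fibroblasts are the main source of fibrillar collagen, and endothelial and mural cells contribute to the basement membrane. Matrix metalloproteinases and their inhibitors, the TIMPs, govern turnover.

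The values are normalized counts per gene and sample, which summed to between 13393411 and 31722217, and to between 3146414 and 3551692 once mitochondrial-encoded genes and rRNA were taken out. The mitochondrial rRNA gene *mt-Rnr2* made up 64.58%, 64.44% and 63.19% of the sum in CtrlCre samples. It made up 61.75%, 72.64% and 80.85% in Cpt1bcKO samples, so Cpt1bcKO samples 2 and 3 stood apart. A single read was worth 0.682 to 1.294 normalized counts in the 4 samples in which this could be resolved, so a value near 10 rests on about as many reads. The targeted gene *Cpt1b* had 1861, 893 and 1443 normalized counts in CtrlCre CMs and 211, 353 and 285 in Cpt1bcKO CMs. Of 10 CM markers, each had a negative log2 fold change, beside 50.2% of all genes tested, with a median of −0.38. Of these, 2 were lower at an unadjusted P below 0.05, beside 7.22%, and 0 passed after adjustment, beside 0.906%. Their sums were 566154, 660692 and 642714 in CtrlCre samples and 377808, 539688 and 592390 in Cpt1bcKO samples. Sample 1 of either group differed from the others in sex-linked genes, with *Xist* at 957 and 1080 against 23 to 78 and *Ddx3y* at 0 against 576 to 710. CtrlCre sample 1 stands apart among the matrix genes. It had the lowest value of the 6 samples in 31 of 38 tested members, which is 81.6% against 19.3% of all genes tested. The main counts are therefore also given without it, as are the log2 fold changes of members that it moves by more than 1.5 times.

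Matrix genes lay higher in Cpt1bcKO CMs in most cases. Of the 52 members, 38 were tested because 3 or more samples reached 10 normalized counts, and 6 of them rose at an adjusted P below 0.05 (limma, Benjamini–Hochberg over 11364 genes). These 6 are *Bgn*, *Thbs1*, *Col1a1*, *Lum*, *Col6a3* and *Col5a1*, with mean values over all samples between 50.2 and 490.0. None of the members fell. Among all genes tested, 0.66% rose and 0.906% fell, against 15.8% of the tested members that rose. At an unadjusted P below 0.05, 26 members were higher and 0 were lower, beside 6.66% and 7.22% of all genes tested. The groups did not overlap in 26 members, each higher in Cpt1bcKO CMs, beside 9.13% of all genes that were higher and 9.6% that were lower in this way. Log2 fold changes were positive in 36 members, beside 49.8% of all genes, and above 1 in 17 members, beside 3.34%. Their median was 0.96, whereas the median over all genes was -0.001.

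Each of the tested members reached 10 in at least 1 CtrlCre sample, and 31 reached it in all 3. *Col4a3*, *Col4a4*, *Col6a6*, *Col12a1*, *Eln*, *Fbln5* and *Loxl1* did not, and passed the filter only with mutant samples. In these 31 the median log2 fold change was 0.94, and 21 had groups that did not overlap, each higher in Cpt1bcKO CMs. The share over all genes tested was 9.13%, but those genes were not restricted in the same way. Among the 20 tested collagens the median was 1.01, and among the 18 other members it was 0.86. Without CtrlCre sample 1, 5 members rose, of which *Bgn*, *Col1a1*, *Lum* and *Thbs1* belong to the 6 above, and *Col8a1* was the fifth, beside 0.412% of all genes. Log2 fold changes were then positive in 32 members, beside 49.1% of all genes, and above 1 in 9, beside 2.79%. The median was 0.66 over the members, 0.83 over the collagens, 0.55 over the others and 0.60 over the 31, and 26 members did not overlap, beside 13.4% of all genes. With samples 2 and 3 of each group alone, an alternative chosen after seeing the data, 6 members rose, namely *Bgn*, *Col1a1*, *Col3a1*, *Col8a1*, *Lum* and *Thbs1*, beside 1.1% of all genes. The median was 0.62 there, and 27 members did not overlap, beside 22.7% of all genes. Within sample number 1 alone, Cpt1bcKO exceeded CtrlCre in 36 of 38 members, beside 48% of all genes. CtrlCre sample 1 was the lowest of the 6 samples in 31 members, which settled the comparison in those members beforehand. No support is drawn from this count. In numbers 2 and 3, Cpt1bcKO exceeded CtrlCre in 36 and 30 members, beside 47.8% of all genes in each. The numbers were not taken as pairs. The adjusted calls also moved with other libraries, since 0 members passed without Cpt1bcKO sample 2, 1 without CtrlCre sample 2 and 3 without Cpt1bcKO sample 3. Calls over all genes were fewer in these fits too, at 0.154%, 0.352% and 0.461% higher. At an unadjusted P below 0.05, 19 to 27 members were higher in each fit without 1 sample, beside 3.94% to 8.95% of all genes. With 1 prior variance for all genes instead of a trend, *Lum* alone passed after adjustment, beside 0.202% of all genes. With 3 mice against 3, the smallest P that an exact two-sided permutation test can give for any member is 0.1, so the calls rest on the spread that limma shares across genes.

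**Figure D1:**
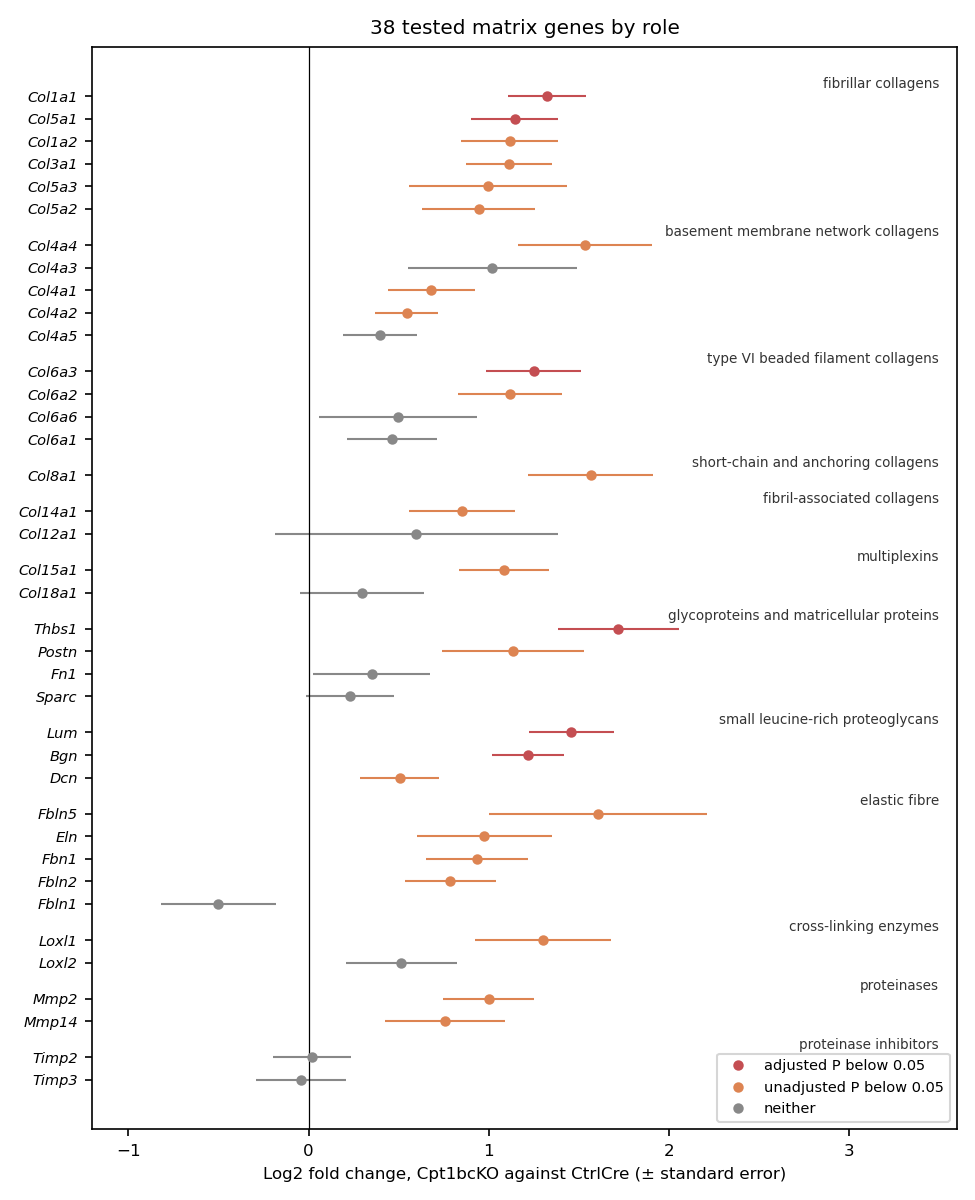
Log2 fold change (horizontal axis, Cpt1bcKO against CtrlCre, ± standard error, n = 3 per group) of the 38 tested members, grouped by role. Red points passed at an adjusted P below 0.05, orange points at an unadjusted P below 0.05, and grey points passed neither. The points of 36 members lie right of 0, and *Fbln1* and *Timp3* lie left of it.

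The chains of the interstitial fibril lay higher together. *Col1a1* (ENSMUSG00000001506, chr11:94936224-94953042 of GRCm38, plus strand), the major chain of type I collagen, had 45, 69 and 64 normalized counts in CtrlCre CMs and 162, 141 and 141 in Cpt1bcKO CMs. Its lowest Cpt1bcKO value was thus above the highest control value, and the means were 59.3 ± 12.7 and 148 ± 12.1 (SD, n = 3). *Col1a1* rose 2.50-fold, or by 1.32 ± 0.214 (standard error) on the log2 scale, at an adjusted P of 0.0143 by limma. It was 0.0516 without CtrlCre sample 3 and 0.0859 without Cpt1bcKO sample 2. *Col5a1* (ENSMUSG00000026837, chr2:27886425-28039514, plus strand) encodes a chain of type V collagen, which sits in the core of type I fibrils and limits their width. Its values were 43, 28 and 40 in CtrlCre CMs and 80, 75 and 91 in Cpt1bcKO CMs. The groups were separate, and *Col5a1* rose by 1.15 on the log2 scale (standard error 0.241, adjusted P = 0.0477 by limma). It lost the call in each of the 6 fits that left out a sample, with an adjusted P of 0.0565 to 0.171. *Col5a1* overlaps 2 annotated genes on the opposite strand.

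*Col3a1* encodes type III collagen, the distensible fibril partner of type I. Its values were 90, 178 and 157 in CtrlCre CMs and 305, 300 and 282 in Cpt1bcKO CMs. No mutant overlapped a control, and the log2 fold change of 1.11 lay just outside the threshold (adjusted P = 0.0511 by limma). *Col1a2*, the second chain of type I collagen, had 40, 56 and 87 against 121, 129 and 131 normalized counts. These groups were also separate, with a log2 fold change of 1.12 (adjusted P = 0.0779 by limma). *Col5a2* and *Col5a3*, further type V chains, had log2 fold changes of 0.94 and 1.0 and adjusted P values of 0.205 and 0.349. The groups overlapped in *Col5a3* and not in *Col5a2*. Per kilobase of exon, the fibrillar chains ranked in the order *Col3a1* (22.3 normalized counts per kb over all samples), *Col1a1* (15.8), *Col1a2* (7.57), *Col5a1* (7.01), *Col5a2* (5.75) and *Col5a3* (3.75). The ratio of *Col3a1* to *Col1a1* was 2, 2.58 and 2.45 in CtrlCre samples and 1.88, 2.13 and 2 in Cpt1bcKO samples, so the groups overlapped. Summed over the 8 fibrillar chains in the table, values were 265, 383 and 447 in CtrlCre CMs and 780, 765 and 765 in Cpt1bcKO CMs. This sum was 2.11 times as high in Cpt1bcKO CMs, with a narrow range among the mutants.

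**Figure D2:**
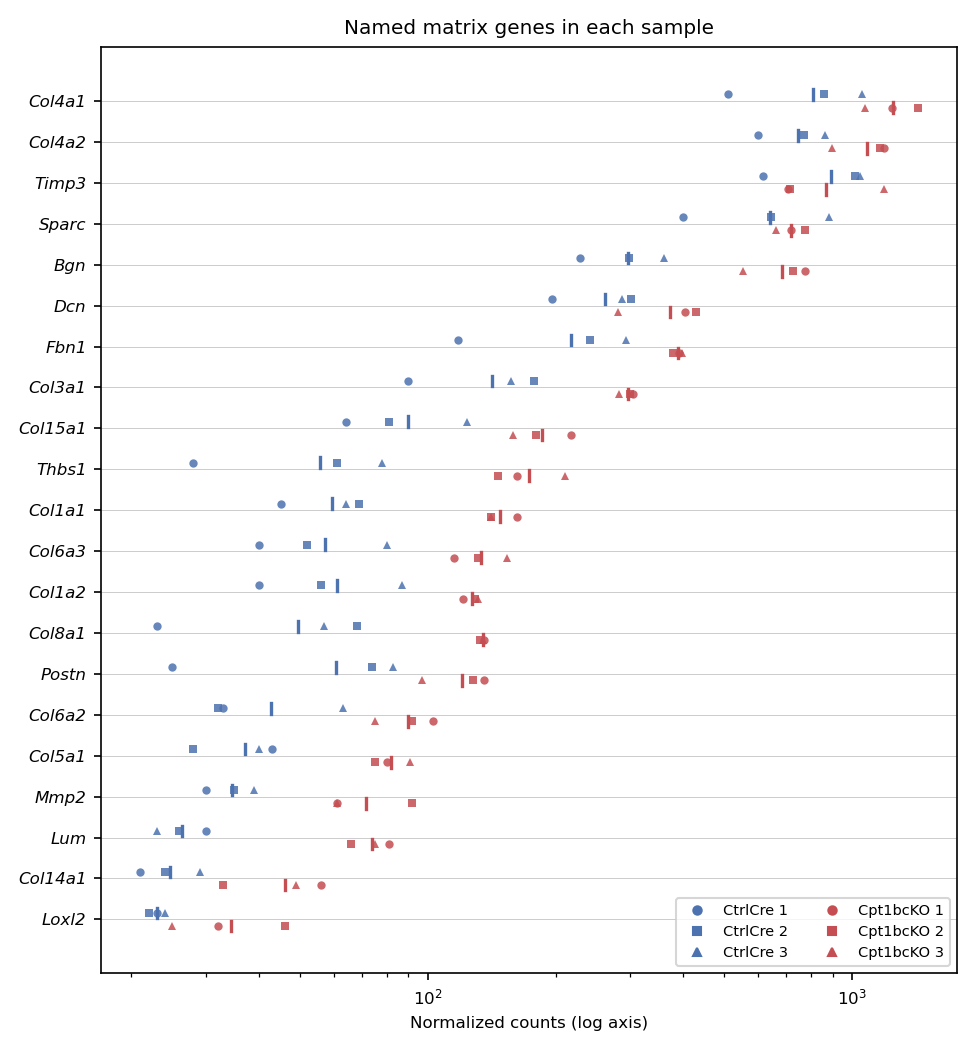
Normalized counts (horizontal log axis) of 21 named members in each of the 6 samples, with CtrlCre in blue, Cpt1bcKO in red, one symbol per sample number and a bar at the group mean. Red points lie right of every blue point for *Col1a1*, *Col5a1*, *Lum*, *Bgn* and *Thbs1*, and the groups mix for *Timp3*, *Sparc* and *Dcn*. The blue circle of CtrlCre sample 1 is often the lowest point.

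Promoter sequence was read for members that rose, to show what the called collagen and proteoglycan genes have upstream of their starts. The windows are the 250 bases before the annotated start from RefSeq on GRCm38.p6, printed 5′ to 3′ on the gene's own strand. Capitals mark matches on either strand to 6 motifs, and matches can share bases. The TATA box was searched as TATAAA and the CCAAT box as its name. The GC box was searched as GGGCGG, to which the factor SP1 binds. The AP-1 site was searched as TGANTCA and the SMAD element as CAGAC. The TEAD element was searched as GGAATG. Windows were found for *Bgn*, *Col5a1* and *Col6a3* among the members that rose, and those of *Col3a1* and *Col8a1*, just outside the threshold, are shown beside them.
*Bgn* (chrX:73483351-73483600, plus strand): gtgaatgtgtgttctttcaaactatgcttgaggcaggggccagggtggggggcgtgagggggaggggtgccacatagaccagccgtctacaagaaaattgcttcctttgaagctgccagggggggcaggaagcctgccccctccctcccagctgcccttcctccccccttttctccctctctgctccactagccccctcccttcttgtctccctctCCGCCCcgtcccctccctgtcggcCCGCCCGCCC
*Col5a1* (chr2:27886175-27886424, plus strand): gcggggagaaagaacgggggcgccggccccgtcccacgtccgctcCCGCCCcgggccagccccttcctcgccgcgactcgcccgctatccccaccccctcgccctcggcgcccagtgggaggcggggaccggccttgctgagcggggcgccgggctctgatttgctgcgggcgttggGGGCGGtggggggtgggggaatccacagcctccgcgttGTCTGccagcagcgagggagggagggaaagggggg
*Col6a3* (chr1:90843972-90844221, minus strand): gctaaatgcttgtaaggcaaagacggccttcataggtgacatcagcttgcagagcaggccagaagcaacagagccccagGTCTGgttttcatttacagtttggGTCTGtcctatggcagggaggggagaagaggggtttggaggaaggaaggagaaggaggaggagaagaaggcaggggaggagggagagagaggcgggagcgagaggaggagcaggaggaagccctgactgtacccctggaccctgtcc
*Col3a1* (chr1:45311288-45311537, plus strand): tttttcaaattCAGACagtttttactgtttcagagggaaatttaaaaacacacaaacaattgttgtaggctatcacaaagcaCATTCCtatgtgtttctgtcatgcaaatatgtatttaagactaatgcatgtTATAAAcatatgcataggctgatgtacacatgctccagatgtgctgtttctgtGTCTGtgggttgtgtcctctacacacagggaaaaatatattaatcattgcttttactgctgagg
*Col8a1* (chr16:57754738-57754987, minus strand): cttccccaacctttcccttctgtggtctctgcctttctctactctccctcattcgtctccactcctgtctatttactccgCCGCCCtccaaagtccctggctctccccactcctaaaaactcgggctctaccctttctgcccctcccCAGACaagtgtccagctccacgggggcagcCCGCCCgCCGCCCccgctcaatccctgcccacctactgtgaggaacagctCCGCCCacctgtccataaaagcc

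*Bgn* holds 3 GC boxes and none of the other motifs, and *Col8a1* holds 4 GC boxes and 1 SMAD element. *Col5a1* holds 2 GC boxes and 1 SMAD element, whereas *Col6a3* has only SMAD elements, at 2 places. *Col3a1* has a TATA box, 2 SMAD elements and 1 TEAD element, but no GC box. Across 43 windows of members, a GC box was present in 60.5%, beside 32.7% of all 32851 windows. The SMAD letters were present in 41.9% beside 42.2%, the TEAD letters in 11.6% beside 12.6%, and the TATA box in 14% beside 12.4%. CCAAT was present in 30.2% beside 33.8%, and the AP-1 letters in 2.33% beside 6.75%. A match shows only that these letters occur in the window.

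Type VI collagen forms beaded filaments that link cells to the interstitial fibrils. *Col6a3* (ENSMUSG00000048126, chr1:90765923-90843971, minus strand), its largest chain, had 40, 52 and 80 normalized counts in CtrlCre CMs and 115, 131 and 154 in Cpt1bcKO CMs. The groups were separate, and *Col6a3* rose by 1.25 on the log2 scale (standard error 0.264, adjusted P = 0.0477 by limma). The adjusted P was 0.129 and 0.158 without CtrlCre samples 1 and 2, and 0.209 and 0.136 without Cpt1bcKO samples 2 and 3. An annotated gene on the same strand overlaps *Col6a3*. Its partner chain *Col6a2* had 33, 32 and 63 against 103, 92 and 75 normalized counts. Here too each mutant exceeded each control, with a log2 fold change of 1.12 (adjusted P = 0.102 by limma). The third partner, *Col6a1*, had 66, 84 and 76 against 147, 95 and 80, with overlapping groups and a log2 fold change of 0.46. It was the most abundant chain of the trimer per kilobase of exon, at 20.9 normalized counts against 7.97 for *Col6a2* and for *Col6a3*. *Col6a6* had a log2 fold change of 0.50 with overlapping groups, or 0.10 without CtrlCre sample 1.

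Basement membrane collagen was the most abundant collagen in these samples. *Col4a1* and *Col4a2*, which encode the common type IV network and lie head to head on chromosome 8, reached 138 normalized counts per kb each. *Col4a1* had 509, 860 and 1053 normalized counts in CtrlCre CMs and 1238, 1430 and 1074 in Cpt1bcKO CMs, with a log2 fold change of 0.68 (adjusted P = 0.235 by limma). *Col4a2* had 601, 771 and 861 against 1190, 1164 and 894, with a log2 fold change of 0.54 (adjusted P = 0.196). Both had separate groups by a small margin, and without CtrlCre sample 1 their log2 fold changes were 0.38 and 0.40. The ratio of the pair, *Col4a1* to *Col4a2*, was 0.847 to 1.22 in CtrlCre samples and 1.04 to 1.23 in Cpt1bcKO samples. *Col4a1* overlaps an annotated gene on the same strand, and the pair overlap each other on opposite strands. *Col4a4*, of the second type IV network, was far lower, at 8, 21 and 16 against 36, 47 and 45 normalized counts. Each mutant exceeded each control, and its log2 fold change was 1.53 (adjusted P = 0.0808 by limma). *Col4a3* had a log2 fold change of 1.02 at values of 6 to 28, and the X-linked *Col4a5* one of 0.40 with overlapping groups. Summed type IV values were 1283, 1879 and 2117 in CtrlCre CMs and 2667, 2915 and 2329 in Cpt1bcKO CMs.

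Among the remaining collagens, *Col8a1*, a short-chain collagen of vessel walls and of remodelled matrix, had 23, 68 and 57 normalized counts in CtrlCre CMs and 136, 133 and 135 in Cpt1bcKO CMs. The mutants lay within 3 normalized counts of each other and above each control. The difference was 1.57 on the log2 scale (standard error 0.346, adjusted P = 0.0574 by limma), and 1.10 without CtrlCre sample 1 (adjusted P = 0.0481 by limma). *Col15a1*, a collagen of the basement membrane zone that anchors it to interstitial fibrils, had 64, 81 and 124 against 218, 180 and 159. Its groups were separate as well, with a log2 fold change of 1.08 (adjusted P = 0.0665 by limma). The related *Col18a1*, the source of endostatin, had 16, 24 and 34 against 35, 23 and 31, and these groups overlapped, with a log2 fold change of 0.30, or 0.03 without CtrlCre sample 1. *Col14a1*, which binds to the surface of fibrils, had 21, 24 and 29 against 56, 33 and 49, with a log2 fold change of 0.85 (adjusted P = 0.217 by limma). *Col12a1*, of the same class, had 1, 11 and 12 against 5, 17 and 9, with overlapping groups. Its log2 fold change was 0.60, and −0.28 without CtrlCre sample 1, in which it had the value of 1.

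Small leucine-rich proteoglycans coat fibrils and govern their assembly, and all 3 of them among the members were higher at an unadjusted P below 0.05, beside 6.66% of all genes tested. *Bgn* (biglycan, ENSMUSG00000031375, chrX:73483602-73495933, plus strand) had 228, 298 and 361 normalized counts in CtrlCre CMs and 775, 724 and 554 in Cpt1bcKO CMs. The groups were separate, and *Bgn* rose 2.33-fold (log2 fold change 1.22, standard error 0.2, adjusted P = 0.0149 by limma). Its adjusted P was 0.0653 without CtrlCre sample 2 and 0.104 without Cpt1bcKO sample 2. *Lum* (lumican, ENSMUSG00000036446, chr10:97565128-97572703, plus strand) had 30, 26 and 23 against 81, 66 and 75. These groups were separate as well, and *Lum* rose 2.75-fold (log2 fold change 1.46, standard error 0.236, adjusted P = 0.0143 by limma). Its adjusted P was 0.0626, 0.0643 and 0.072 without CtrlCre sample 2, CtrlCre sample 3 and Cpt1bcKO sample 2. *Dcn* (decorin), which binds type I collagen and lies beside *Lum* on chromosome 10, had 196, 302 and 287 in CtrlCre CMs and 404, 429 and 281 in Cpt1bcKO CMs. Its groups overlapped, with a log2 fold change of 0.50 (adjusted P = 0.34 by limma), or 0.31 without CtrlCre sample 1. Not each gene of this family was higher. *Ogn* (osteoglycin), which is no member and was named after its values were seen, had 701, 657 and 575 against 484, 390 and 408, with each mutant below each control and a log2 fold change of −0.59 (adjusted P = 0.0969 by limma). The ratio of *Dcn* to *Bgn*, chosen after its values were seen, was 0.86, 1.01 and 0.795 in CtrlCre samples. It was 0.521, 0.593 and 0.507 in Cpt1bcKO samples, each below each control, and this difference was not tested.

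Among glycoproteins and matricellular proteins, which bind cells and growth factors more than they bear load, *Thbs1* gave the largest change of any member that passed the test. *Thbs1* (thrombospondin 1, ENSMUSG00000040152, chr2:118111876-118127133, plus strand), an activator of latent TGF-β, had 28, 61 and 78 normalized counts in CtrlCre CMs and 162, 146 and 211 in Cpt1bcKO CMs. The groups were separate, and *Thbs1* rose 3.29-fold (log2 fold change 1.72, standard error 0.337, adjusted P = 0.0337 by limma). Its adjusted P was 0.0885, 0.13 and 0.112 without CtrlCre sample 2, Cpt1bcKO sample 2 and Cpt1bcKO sample 3. An annotated antisense gene overlaps *Thbs1*. *Postn* (periostin), a protein of activated fibroblasts, had 25, 74 and 83 against 136, 128 and 97. These groups did not overlap either, but the log2 fold change of 1.13 had an adjusted P of 0.222 by limma and was 0.60 without CtrlCre sample 1. *Fn1* (fibronectin), on which new collagen is assembled, had 65, 136 and 185 against 154, 163 and 136. *Sparc*, a collagen chaperone outside the cell and the member with the highest level per kilobase (179 normalized counts per kb), had 399, 644 and 882 against 716, 774 and 660. Both had overlapping groups, with log2 fold changes of 0.35 and 0.23, and without CtrlCre sample 1 these were −0.07 and −0.08.

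Of 5 elastic fibre genes, 4 were higher at an unadjusted P below 0.05, beside 6.66% of all genes tested, and 0 passed after adjustment, beside 0.66%. Of these 4, *Fbln5* and *Eln* each had a CtrlCre value below 10. They passed the filter only with mutant samples, and no support is drawn from them. *Fbn1* (fibrillin 1), the backbone of microfibrils, had 118, 241 and 293 normalized counts in CtrlCre CMs and 391, 379 and 397 in Cpt1bcKO CMs. The groups were separate, with a log2 fold change of 0.94 (adjusted P = 0.165 by limma) that was 0.55 without CtrlCre sample 1. *Fbln2* had 90, 150 and 164 against 205, 193 and 290, *Fbln5* had 3, 15 and 25 against 34, 47 and 27, and *Eln* (elastin) had 9, 18 and 21 against 30, 37 and 26. In these 3 genes the groups did not overlap, with log2 fold changes of 0.79, 1.61 and 0.98 and adjusted P values of 0.19 to 0.274. Without CtrlCre sample 1 the log2 fold changes were 0.52, 0.82 and 0.63. *Fbln1* was the member with the most negative log2 fold change, −0.50, and its values of 102, 44 and 52 against 40, 52 and 39 overlapped. The value of 102, far above the other controls, was that of CtrlCre sample 1, and without it the log2 fold change was −0.14.

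Among the members that encode enzymes to cross-link or cut the matrix, *Mmp2* was close to *Col1a1* in level per kilobase (15.7 and 15.8 normalized counts per kb). The others of these members were lower. *Loxl1*, a lysyl oxidase needed for elastic fibres, had 9, 11 and 20 normalized counts in CtrlCre CMs and 41, 31 and 27 in Cpt1bcKO CMs, with separate groups and a log2 fold change of 1.30 (adjusted P = 0.15 by limma). *Loxl2* had 23, 22 and 24 against 32, 46 and 25, a margin of 1 normalized count between the groups. *Mmp2*, a gelatinase made by fibroblasts, had 30, 35 and 39 against 61, 92 and 61, and its activator *Mmp14* had 11, 16 and 19 against 27, 26 and 25. Neither proteinase overlapped between groups, with log2 fold changes of 1.0 (adjusted P = 0.0937) and 0.76 (adjusted P = 0.349). Their inhibitors gave another picture. *Timp3*, which binds to the matrix and had 108 normalized counts per kb, had 617, 1014 and 1046 against 707, 713 and 1189. *Timp2*, which also takes part in activation of MMP2, had 88, 74 and 116 against 86, 90 and 102. Both overlapped, with log2 fold changes of −0.04 and 0.02, or −0.29 and 0 (rounded, and just negative) without CtrlCre sample 1, and the sign for *Timp3* turned when samples were scaled to equal totals outside mitochondrial-encoded genes and rRNA. The sum of the 3 TIMP genes was 707, 1090 and 1164 in CtrlCre CMs and 796, 803 and 1294 in Cpt1bcKO CMs.

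The other 14 members were not tested, and their highest value in any sample was 13. They are *Lox*, the main lysyl oxidase, *Timp1*, *Col4a6*, *Col9a2*, *Col10a1*, *Col11a2*, *Col13a1*, *Col16a1*, *Col17a1*, *Col20a1*, *Col23a1*, *Col25a1*, *Col27a1* and *Col28a1*. Of these, 7 had a value of 0 in at least 1 sample. *Timp1*, an inhibitor that is induced in many injured tissues, had 2, 2 and 2 normalized counts in CtrlCre CMs and 3, 0 and 3 in Cpt1bcKO CMs. *Lox* had 2, 4 and 7 against 10, 10 and 1. *Col16a1*, named after its values were seen, had 0, 6 and 7 against 10, 9 and 12, with groups that did not overlap. In a fit with no filter, 0 of the 14 passed at an adjusted and 0 at an unadjusted P below 0.05 by limma. Of all 16439 genes in that fit, 0.541% were higher at the adjusted and 6.08% at the unadjusted threshold. The genes that were lower numbered 123 and 968.

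Because matrix genes are chiefly expressed by cells other than CMs, their levels were set beside markers of those cells. In bulk RNA, a change in the number of cells of a type and a change in RNA per cell cannot be told apart. Of 20 fibroblast markers listed, 19 were in the table and 16 were tested. None passed at the adjusted threshold, beside 0.66% of all genes tested that rose and 0.906% that fell. At an unadjusted P below 0.05, 3 were higher, namely *Pi16*, *Pdgfra* and *Gsn*, beside 6.66% of all genes tested. The median log2 fold change of the 16 was 0.26, or 0.083 without CtrlCre sample 1, and none of the 19 was at 0 in any sample. Summed fibroblast markers were 1344, 1668 and 2045 in CtrlCre samples and 1983, 1911 and 1769 in Cpt1bcKO samples, and thus overlapped. The ratio of the fibrillar collagen sum to this sum was 0.197, 0.23 and 0.219 in CtrlCre samples and 0.393, 0.4 and 0.432 in Cpt1bcKO samples. It was higher in each mutant than in each control, and it was not tested. The list includes *Vim*, *Gsn* and *C3*, which other cells also express and which make up most of the sum.

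Endothelial markers were compared with the basement membrane collagens. All 18 were tested, and 17 had a positive log2 fold change, beside 49.8% of all genes tested. At an unadjusted P below 0.05, 4 were higher, beside 6.66%. After adjustment 0 passed, beside 0.66% of all genes higher and 0.906% lower. The median log2 fold change of the 18 was 0.35. That median was 0.022 without CtrlCre sample 1. The sums were 9505, 12047 and 10952 in CtrlCre samples and 14282, 11790 and 8977 in Cpt1bcKO samples, and overlapped. Without *Cd36*, which CMs also express, they summed to 2062, 3987 and 4262 in CtrlCre samples and 4518, 4759 and 4308 in Cpt1bcKO samples, with CtrlCre sample 1 lowest. Each mutant sum was above each control sum, and the mean was 1.32 times as high in Cpt1bcKO samples. The ratio of the type IV collagen sum to this sum was 0.622, 0.471 and 0.497 against 0.59, 0.613 and 0.541, so the groups overlapped. Pericyte and smooth muscle markers without *Des* and *Abcc9*, which CMs also express, summed to 1202, 2001 and 2625 against 1992, 1805 and 1350. Of the smooth muscle markers, *Tagln* and *Cnn1* were at most 13, whereas *Acta2* had 526, 244 and 391 against 230, 134 and 132. *Myh11* had 14, 117 and 217 against 155, 123 and 92. Over all tested markers of this list, with *Des* and *Abcc9* included, the median log2 fold change was 0.003, or −0.44 without CtrlCre sample 1. *Abcc9* was lower at an adjusted P of 0.0123 by limma. Macrophage markers summed to 240, 216 and 381 against 264, 266 and 337, and the lists for mesothelial cells, Schwann cells and lymphocytes summed to at most 129 in any sample. The part of these cells in the matrix results was not tested.

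**Figure D3:**
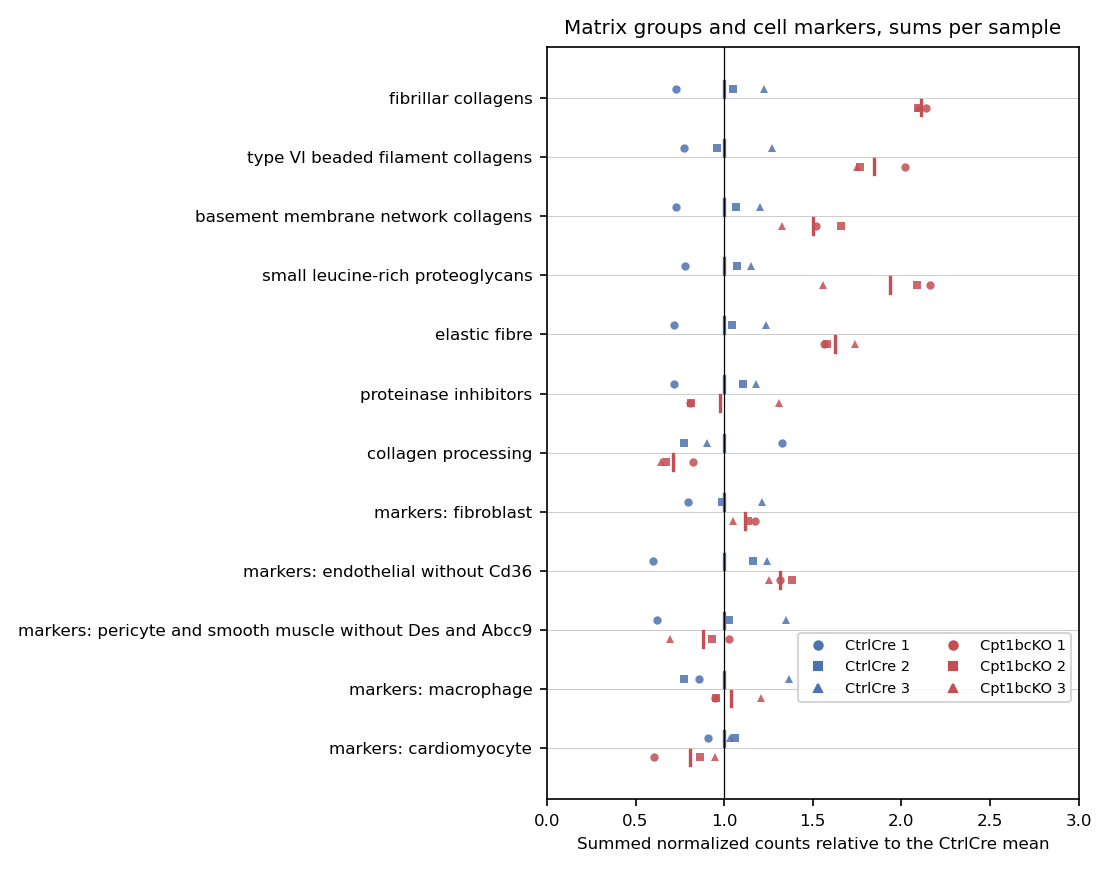
Summed normalized counts of matrix groups, collagen processing genes and cell type markers in each sample, divided by the mean of the CtrlCre samples (horizontal axis, linear, 1 is the control mean). Blue points are CtrlCre, red points Cpt1bcKO, and bars are group means. Fibrillar collagens lie near 2.11 in all 3 mutants, whereas fibroblast markers and proteinase inhibitors overlap between groups.

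The genes that hydroxylate, fold and trim collagen lay on both sides of 0. Of 30 collagen processing genes listed, 24 were tested and 0 passed at the adjusted threshold, beside 0.66% of all genes higher and 0.906% lower. The median log2 fold change of the list was −0.12, or 0.008 without CtrlCre sample 1. At an unadjusted P below 0.05, *Adamts2*, which trims procollagen, was higher and *Hsp90b1*, *Plod2* and *Mia3* were lower, beside 6.66% and 7.22% of all genes tested. *P4hb*, a subunit of prolyl 4-hydroxylase, had 1103, 609 and 791 normalized counts in CtrlCre CMs and 910, 664 and 696 in Cpt1bcKO CMs. *Hsp90b1*, a general chaperone of the endoplasmic reticulum, had 4920, 2036 and 2677 against 2003, 1356 and 1332, with a log2 fold change of −0.96 (adjusted P = 0.162 by limma). The value of 4920 is that of CtrlCre sample 1, and without it the log2 fold change was −0.60. *Hsp90b1* and *P4hb* serve secreted proteins in general and are not particular to collagen. *Serpinh1*, the chaperone most specific to collagen and named after its values were seen, had 286, 297 and 380 against 346, 399 and 362, with overlapping groups and a log2 fold change of 0.21.

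Other structural matrix genes were measured in the same fit. Of 47 listed, 29 were tested, 1 rose and 2 fell, beside 0.66% and 0.906% of all genes tested. At an unadjusted P below 0.05, 6 were higher and 3 lower, beside 6.66% and 7.22%, and 24 had a positive log2 fold change, beside 49.8%, with a median log2 fold change of 0.44, or 0.17 without CtrlCre sample 1. *Vcan* (versican), a large proteoglycan of provisional matrix, had 41, 60 and 73 normalized counts in CtrlCre CMs and 142, 122 and 148 in Cpt1bcKO CMs and rose (log2 fold change 1.26, adjusted P = 0.0277 by limma). *Emilin2*, an elastin-associated glycoprotein, had 210, 118 and 116 against 46, 34 and 44 and fell (log2 fold change −1.77, adjusted P = 0.0107). *Ltbp1*, which stores latent TGF-β in the matrix, had 276, 222 and 286 against 130, 132 and 131 and fell (log2 fold change −0.98, adjusted P = 0.0176). In all 3 genes the groups were separate. Without Cpt1bcKO sample 2 the adjusted P values of *Vcan*, *Emilin2* and *Ltbp1* were 0.109, 0.072 and 0.0963. That of *Vcan* was 0.0674, 0.0911 and 0.0851 without CtrlCre sample 1, CtrlCre sample 2 and Cpt1bcKO sample 3, and that of *Ltbp1* was 0.0643 and 0.098 without CtrlCre samples 1 and 3. *Hspg2* (perlecan) and *Sparcl1* had the 2 highest means of the list, without correction for length. Their log2 fold changes were 0.41 and 0.13 with overlapping groups, or 0.17 and −0.16 without CtrlCre sample 1.

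Of 40 listed genes of matrix turnover, 22 were tested and 1 rose, beside 0.66% of all genes tested, with a median of 0.22, or 0.14 without CtrlCre sample 1. At an unadjusted P below 0.05, 5 were higher and 0 lower, beside 6.66% and 7.22%. The 5 include *Fap*, which had 4, 6 and 5 normalized counts in CtrlCre CMs and 10, 10 and 18 in Cpt1bcKO CMs. *Adamtsl2*, also among the 5, had 3, 8 and 10 against 32, 39 and 21. Both genes thus passed the filter only with mutant samples, and no support is drawn from them. *Adam19*, a membrane-bound metalloproteinase, had 81, 51 and 121 normalized counts in CtrlCre CMs and 366, 445 and 285 in Cpt1bcKO CMs. *Adam19* rose by 2.16 ± 0.292 (standard error) on the log2 scale (adjusted P = 0.00643 by limma), which exceeded the difference in each tested member, and its adjusted P was 0.0562 without Cpt1bcKO sample 2. The lysosomal proteinase *Ctsl* had 349, 271 and 231 against 634, 469 and 388, with separate groups and a log2 fold change of 0.80 (adjusted P = 0.116 by limma). *Ctsb*, at 941, 1095 and 962 against 966, 1184 and 1262, overlapped.

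**Figure D4:**
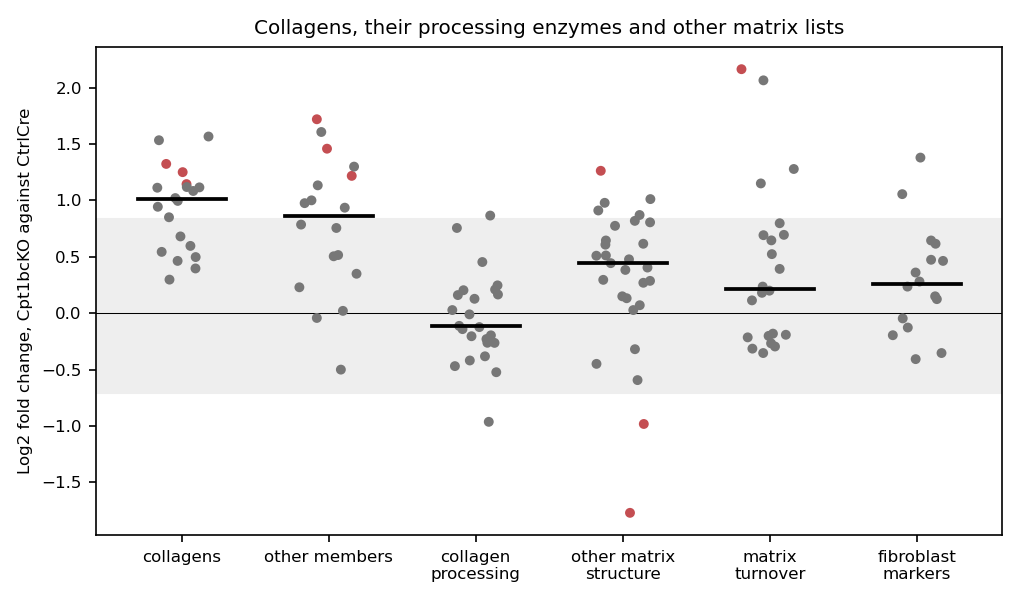
Log2 fold change (vertical axis, Cpt1bcKO against CtrlCre) of each tested gene in 6 lists. Each point is a gene, red where the adjusted P was below 0.05, bars are list medians, and the grey band spans the 5th to 95th percentile of all tested genes (−0.71 to 0.83). Collagens sit at a median of 1.01 and their processing genes at −0.12. Without CtrlCre sample 1, which is not drawn, these medians were 0.83 and 0.008.

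The genes whose pattern was most like that of *Col1a1* over the 6 samples were sought among 6771 genes outside the members with a mean of at least 50. They were *Abca8a* (Pearson's r = 0.997), *Rusc2* (0.988), *Auts2* (0.985), *Ralgps1* (0.979) and *Piezo1* (0.979), where r is a description and the 6 samples share the difference between groups. *Piezo1*, a mechanically gated ion channel, had 50, 81 and 72 normalized counts in CtrlCre CMs and 186, 221 and 157 in Cpt1bcKO CMs, with a log2 fold change of 1.48. *Abca8a*, a lipid transporter, had 83, 105 and 105 against 171, 153 and 151, with a log2 fold change of 0.70. Both had separate groups, which follows from their choice by likeness to *Col1a1*. Both were part of the limma fit, but because of this choice no test of them is used.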

How the data were processed

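RNA from adult CMs of 3 CtrlCre and 3 Cpt1bcKO mice was sequenced by the authors from stranded total RNA libraries. The authors trimmed reads (Trimmomatic 0.36), aligned them (STAR 2.5.4b, mm10/GRCm38.p5), excluded reads on several genes, counted the rest (featureCounts 1.6.0) and divided by size factors (DESeq2 1.14.1). They rounded the result to whole numbers and deposited it as a signal per gene and sample, called normalized counts here. Columns of the authors' own comparisons were not used. The annotation release and use of strand in counting are not given in the sources used here. Overlaps with annotated genes are named for some members, and other members have them too.

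Values were tested as log2(value + 1), for genes with at least 10 in at least 3 samples, with limma 3.58.1 in R 4.3.3 (eBayes with trend, Benjamini–Hochberg adjustment over 11364 genes). Fold changes on this scale understate those of low genes. Levels per kb use exon lengths of GENCODE vM21, and coordinates are those of the deposited table. Named genes are members past the adjusted threshold, the 8 with the highest mean, the 10 with the largest change at a mean of at least 50 and separate groups, and the highest of each role. Other lists give the genes past the threshold and the 2 with the highest mean, plus *Cpt1b* and the 5 genes most like *Col1a1*. Other members are shown as part of the rule. The members and lists were chosen with earlier results of these data known. Steps were tested on simulated data. Alternatives were pseudocounts of 0.5 and 5, other filters, 2 other scalings, 1 prior variance, a replicate block and leaving out samples.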

Additional observations from a re-analysis of the deposited data

How the results depend on the processing

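Members that rose numbered 6 with a pseudocount of 0.5 (beside 0.642% of all genes), 8 with a pseudocount of 5 (0.748%), 8 without a filter (0.541%), 6 with a mean of at least 50 (0.956%), 8 when scaled to equal totals outside mitochondrial-encoded genes and rRNA (0.907%) and 6 with median-of-ratios factors (0.686%). That first scaling shifted the median of all genes by 0.108. With 1 prior variance for all genes there was 1 (0.202%), and leaving out each sample in turn gave 0 to 5 (0.154% to 1.23%). *Bgn*, *Col1a1*, *Lum* and *Thbs1* each kept the call in 3 or 4 of these 6 fits, *Col6a3* in 2 and *Col5a1* in 0. The median log2 fold change of the members was 0.66 to 1.20 over the fits without 1 sample.

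Deviations from the group means correlated between same-numbered samples at r = 0.376, 0.255 and 0.0684 across genes, which are not independent replicates, and CtrlCre sample 3 correlated better with Cpt1bcKO sample 2 (0.119), so the numbers were not taken as pairs, although sample 1 of both groups also shares its sex-linked expression. With the replicate block, 16 members rose, among them all 6 of the unblocked fit and also *Col1a2*, *Col3a1*, *Col4a4*, *Col5a2*, *Col6a2*, *Col8a1*, *Col15a1*, *Fbln2*, *Fbn1* and *Mmp2*, while the share of all genes that rose went from 0.66% to 2.19%. The block gave 1 lower collagen processing gene, 3 higher other structural genes and 4 higher turnover genes. Of all 11364 genes, 354 were lower and 2.19% were higher in that fit.

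In other lists, 1 prior variance for all genes gave 0 higher and 0 lower structural genes and 0 higher turnover genes. In that fit 0.202% of all genes were higher and 18 of 11364 were lower. *Cpt1b* had an adjusted P of 0.0563 by limma there, at a log2 fold change of −2.27. The scaling to equal totals outside mitochondrial-encoded genes and rRNA gave 2 higher turnover genes, beside 0.907% of all genes. Fits without 1 sample gave 0 to 1 higher and 0 to 3 lower structural genes and 0 to 1 higher turnover genes. Over these fits, 0.154% to 1.23% of all genes were higher, and 23 to 168 genes were lower. Samples numbered 2 and 3 alone, chosen after seeing the data, gave 1 lower collagen processing gene, 0 higher structural genes and 2 higher turnover genes. Of all 10835 genes in that fit, 127 were lower and 1.1% were higher. Signs turned for *Timp3* (0.07 with that scaling, and −0.29 to 0.092 over the fits without 1 sample). Leaving out CtrlCre sample 1 also turned those of *Col12a1* (−0.28), *Fn1* (−0.07), *Timp2* (0 once rounded), *Sparc* (range over the fits without 1 sample −0.076 to 0.496), *Sparcl1* (−0.164 to 0.446), *P4hb* (−0.318 to 0.11) and the median of collagen processing genes (−0.177 to 0.008). With samples 2 and 3 alone *Sparc* was at −0.076 and *Sparcl1* at −0.227. The cause was not tested. Values near 10 rest on few reads, which limits *Col4a3*, *Col12a1*, *Fbln5* and the untested members.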
